A study of Dicosmoecus gilvipes with 20 samples.

Results

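The insect cuticle is a composite of chitin fibres and structural proteins that epidermal cells secrete. Many cuticle proteins share a chitin-binding motif, the Rebers and Riddiford consensus, and the set of proteins made differs between larval stages and between outer and inner layers of the cuticle. At each moult chitinases, which cleave chitin chains, help to digest the old cuticle so that most of its material can be reused. The transcripts described here are from the thorax of the caddisfly *Dicosmoecus gilvipes*. They are those named for a cuticle protein or for chitin among transcripts that differed between temperatures.

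The study held larvae of the fifth instar at 15.5, 20, 25 or 28.6°C and sequenced thorax RNA, with 5 libraries per temperature. All larvae were wild, came from 1 river site, were kept in a common cool tank for some weeks, were warmed over several days and were sampled after a day at the final temperature. No group was left at the temperature of the common tank, so 15.5°C was the coolest reference. The libraries of a temperature were made from pooled RNA of the same larvae, so the errors given here compare pools and leave out variation between animals.

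Members were chosen from the deposited table of 2586 contigs, of which 1393 carried an annotation. That table holds contigs that differed between temperatures in these same libraries. Every contig of that table whose annotation contained the letters of cuticle or chitin was taken, which gave 18 contigs. The rest of the 135858 contigs counted were not searched by name. Cuticle contigs outside the table are thus not covered, apart from sister contigs of the members. Because the temperature differences chose the table, all differences of the members between temperatures are given as a description, with no test. The 18 contigs belonged to 12 subcomponents, the groups of related contigs that the assembler makes and that come closest to a gene here.

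The annotation named 7 proteins of other insects. Structural proteins accounted for 15 members in 10 subcomponents. Of these, 7 matched larval cuticle proteins of moths, namely larval cuticle protein 1 of *Helicoverpa* and larval cuticle protein 16/17 of *Manduca*. Another 5 matched endocuticle structural glycoproteins of the locust *Schistocerca*, SgAbd-2 and SgAbd-5, which were named from the inner layer of the abdominal cuticle. The other 3 structural members matched cuticle protein 6 of the cockroach *Blaberus* or cuticle protein 8 of *Locusta*. The last 3 members, in 2 subcomponents, matched probable chitinase 3 of *Drosophila*. Structural matches covered 66 to 112 residues at 41.4 to 72.7% identity, while the structural contigs were 365 to 1562 bases long, so much of the longer contigs lay outside the match. The longest member, of 2652 bases, was a chitinase match. Contigs carry no genome position here, and each is named by its assembly identifier.

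Levels are CPM, estimated counts relative to the library total after TMM scaling, a method that allows for differences in composition between libraries. Estimated counts per library ranged from 6756103 to 14236152. A group of contigs that resembles ribosomal RNA took 45.0% of the counts in 20°C replicate 1 and 77.0% in replicate 4, against 0.490 to 15.1% in the other 18 libraries, and the levels of these 2 libraries rest on fewer counts. It took 4.91 to 15.1% in the 28.6°C libraries and 0.513 to 2.45% in those of 15.5°C. The median log2 difference of the tested members between 28.6 and 15.5°C was -3.27 with all data, -3.28 with these contigs removed and -3.27 without those 2 libraries. The longest read position in the error profile of the counting program was 188 in 3 libraries of 15.5°C, 1 of 20°C and 4 of 25°C and 99 in all others, which include all libraries of 28.6°C.

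Summed over the members, cuticle transcripts were lower at each warmer temperature. The summed level of all 18 members was 4005 ± 122 CPM (SD, n = 5) at 15.5°C, 2804 ± 181 CPM at 20°C, 1132 ± 83.5 CPM at 25°C and 385 ± 57.8 CPM at 28.6°C. The libraries of neighbouring temperatures did not overlap in this sum, with 3886 to 4211 CPM, 2488 to 2952 CPM, 1062 to 1273 CPM and 339 to 461 CPM in order of warming. Larval cuticle proteins made up most of it, with 3271 ± 138 CPM at 15.5°C and 224 ± 29.8 CPM at 28.6°C. Endocuticle glycoproteins stood at 619 ± 29.5 CPM at 15.5°C, at 627 ± 61.7 CPM at 20°C and at 125 ± 23.7 CPM at 28.6°C. Their sums at 15.5 and 20°C overlapped, which those of the larval cuticle proteins did not. Cuticle proteins 6 and 8 had the lowest sum at 20°C, 24.7 ± 4.95 CPM, against 72.2 ± 2.65 CPM at 15.5°C and 29.5 ± 5.26 CPM at 28.6°C. In bulk tissue, fewer epidermal cells and less transcript per cell cannot be told apart.

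**Figure D1:**
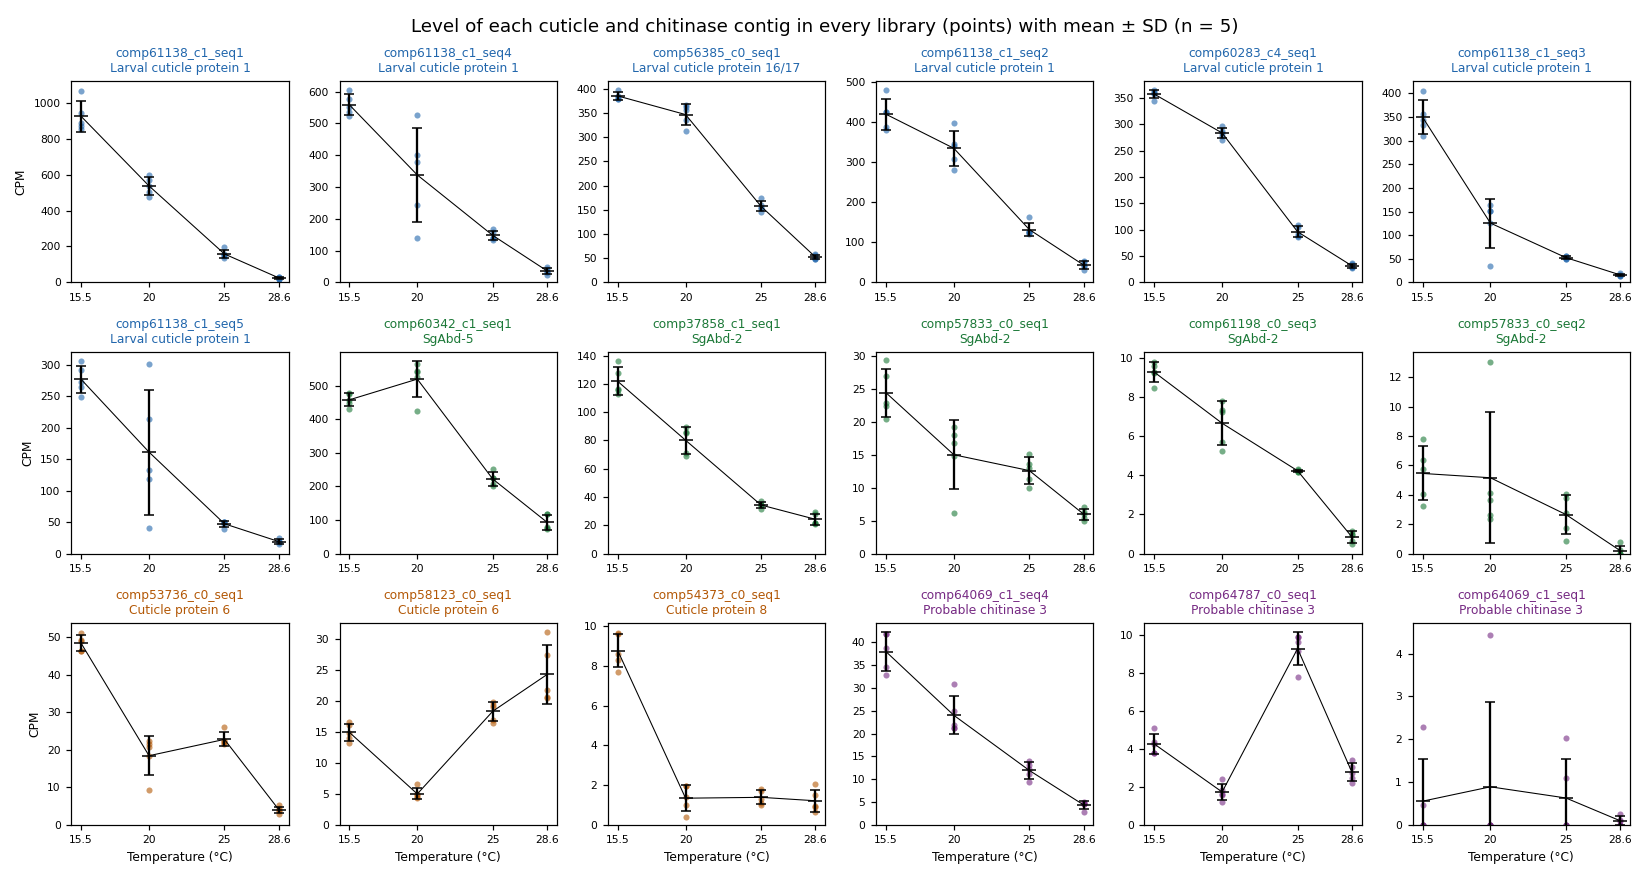
CPM (y axis, from 0) against temperature in °C (x axis) for each of the 18 contigs. Points are libraries and bars are the mean ± SD of 5 libraries; 14 of the 17 tested contigs had their highest mean at 15.5°C, and comp58123_c0_seq1 had its highest at 28.6°C.

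The most abundant member was comp61138_c1_seq1, a contig of 365 bases that matched larval cuticle protein 1. It stood at 1067, 888, 855, 868 and 941 CPM in the libraries of 15.5°C, at 599, 572, 503, 474 and 537 CPM at 20°C, at 199, 157, 135, 145 and 155 CPM at 25°C and at 32.5, 30.1, 21.2, 21.7 and 20.9 CPM at 28.6°C. No library of one temperature overlapped with those of another, and each warmer group lay below the cooler one. The difference between 28.6 and 15.5°C was -5.19 ± 0.15 on the log2 scale (fitted fold change ± SE), a level 36.6-fold lower, and was the largest of any tested member. Steps of -0.78 ± 0.12, -1.76 ± 0.13 and -2.65 ± 0.13 led to it, so that each step of warming was larger than the one before.

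The same subcomponent held 4 longer contigs that matched the same protein, at 58.1% identity against 62.2% for comp61138_c1_seq1. All 4 were lower at 28.6°C. For comp61138_c1_seq4 the values were 604, 552, 535, 578 and 523 CPM at 15.5°C, 245, 526, 400, 141 and 379 CPM at 20°C, 160, 168, 139, 134 and 139 CPM at 25°C and 41.8, 49.5, 34.2, 31.8 and 24.0 CPM at 28.6°C. Its 20°C libraries spread so widely that they overlapped with both neighbours. For comp61138_c1_seq3 they were 310, 357, 344, 333 and 406 CPM at 15.5°C, 152, 35.7, 163, 151 and 127 CPM at 20°C, 50.0, 52.1, 55.1, 50.0 and 55.5 CPM at 25°C and 14.6, 16.5, 13.1, 15.5 and 20.1 CPM at 28.6°C. Here 20°C replicate 2 alone lay below the 25°C libraries. The fitted differences between 28.6 and 15.5°C were -3.94 ± 0.27 for comp61138_c1_seq4, -4.46 ± 0.29 for comp61138_c1_seq3, -3.27 ± 0.14 for comp61138_c1_seq2 and -3.86 ± 0.35 for comp61138_c1_seq5.

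How reads were divided among these contigs bears on those values. Nearly all 81037 estimated counts of comp61138_c1_seq1 were unique to it (81032), but the 4 longer contigs had 13 unique counts in all 20 libraries, so their single levels rest on the probabilities of the counting program. In 20°C replicate 2, where comp61138_c1_seq3 and comp61138_c1_seq5 were low at 35.7 and 40.5 CPM, comp61138_c1_seq4 was high at 526 CPM. The coefficient of variation over the 20°C libraries was 41.4, 44.0 and 61.6% for comp61138_c1_seq3, comp61138_c1_seq4 and comp61138_c1_seq5, but 4.99% for the sum of the subcomponent. That sum was 2457 ± 115 CPM at 15.5°C, 1487 ± 74.2 CPM at 20°C, 529 ± 46.0 CPM at 25°C and 135 ± 21.1 CPM at 28.6°C. It differed by -4.18 ± 0.08 between 28.6 and 15.5°C, the largest difference among the 12 subcomponents.

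**Figure D2:**
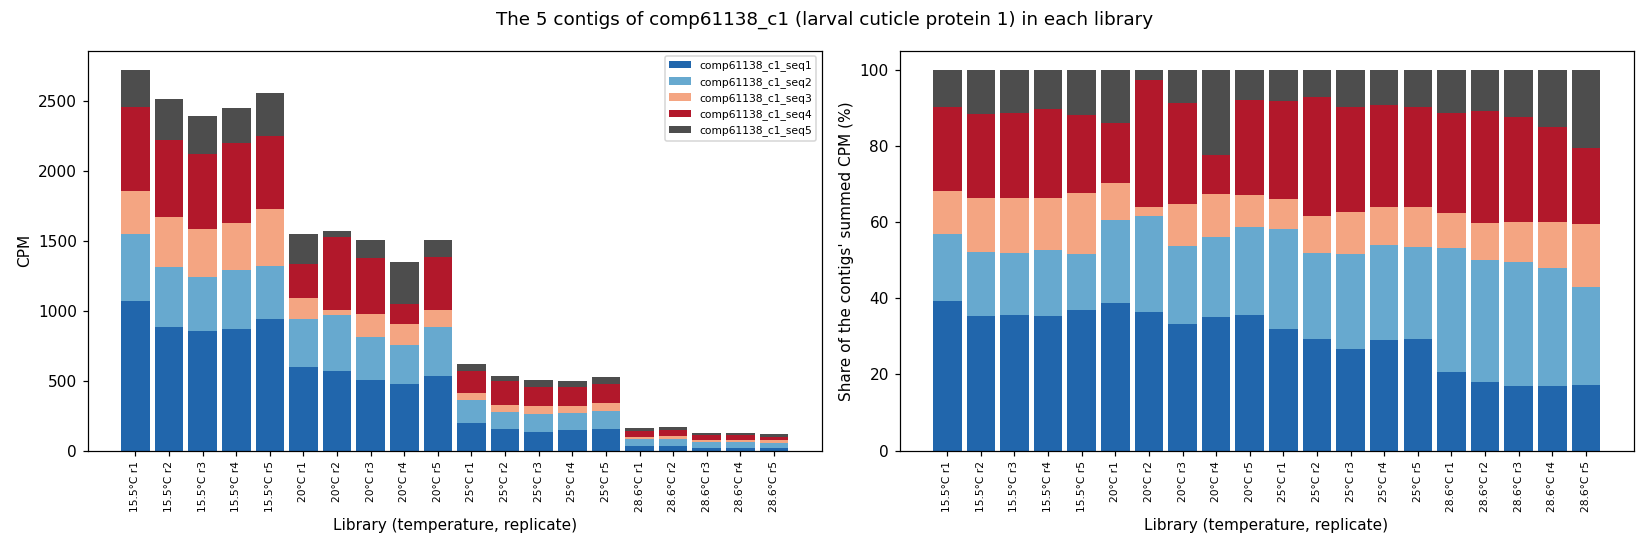
Stacked CPM (left) and percent share (right) of the 5 contigs of comp61138_c1 in each library (x axis, temperature and replicate). The total is lower at each warmer temperature, the shortest contig (seq1) holds 35.3 to 39.2% of it at 15.5°C and 16.9 to 20.5% at 28.6°C, and the division among seq3, seq4 and seq5 varies between the 20°C libraries.

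The composition of the sum also differed. The share of comp61138_c1_seq1 within its subcomponent averaged 36.5, 35.9, 29.3 and 17.9% in order of warming, and the level of this contig rests on counts unique to it. Whether this contig and the longer ones come from the same gene was not tested. The share of the whole subcomponent in the sum of the members was 61.7 to 64.7% in the 15.5°C libraries, 52.6 to 54.2% at 20°C, 46.9 to 48.8% at 25°C and 35.7 to 36.5% at 28.6°C, without overlap. The 13 members outside it also had a lower sum at 28.6°C, 245 ± 36.2 CPM against 1476 ± 34.6 CPM at 15.5°C.

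The other larval cuticle transcripts had little spread between libraries. comp56385_c0_seq1, the match to larval cuticle protein 16/17 of *Manduca*, was measured at 398, 383, 379, 386 and 380 CPM at 15.5°C, at 335, 356, 363, 313 and 366 CPM at 20°C, at 174, 146, 154, 154 and 159 CPM at 25°C and at 55.9, 58.3, 51.1, 48.9 and 49.2 CPM at 28.6°C. The groups did not overlap, although the first step was small at -0.15 ± 0.058. The later steps were -1.14 ± 0.059 and -1.58 ± 0.060, and 28.6°C was 7.31-fold below 15.5°C. comp60283_c4_seq1, a second subcomponent that matched larval cuticle protein 1, had the same order of levels, from 357 ± 7.57 CPM at 15.5°C through 283 ± 9.84 and 96.0 ± 10.1 CPM to 31.5 ± 4.21 CPM at 28.6°C. Unlike the long contigs of comp61138_c1, it had 90.3% unique counts.

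Among the endocuticle glycoproteins, the SgAbd-5 match comp60342_c1_seq1 was the most abundant. It had 459, 449, 477, 475 and 430 CPM at 15.5°C, 540, 564, 526, 425 and 542 CPM at 20°C, 252, 224, 208, 201 and 226 CPM at 25°C and 118, 118, 74.6, 76.2 and 79.4 CPM at 28.6°C. Its 20°C libraries were above those of 15.5°C except replicate 4, which was lower than all of them. The fitted difference was 0.18 ± 0.12 at 20°C against 15.5°C, followed by -1.23 ± 0.12 and -1.25 ± 0.12. In the libraries of 28.6°C, replicates 1 and 2 were higher than the other 3.

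An SgAbd-2 match with 68.2% identity, comp37858_c1_seq1, was at 116, 116, 128, 137 and 113 CPM at 15.5°C, 71.2, 85.2, 89.4, 68.8 and 86.2 CPM at 20°C, 34.6, 31.3, 37.0, 34.3 and 34.4 CPM at 25°C and 21.0, 29.2, 21.6, 28.2 and 21.3 CPM at 28.6°C. All 4 groups were apart, and the largest step, -1.23 ± 0.10, was between 20 and 25°C, while the last was -0.50 ± 0.10. The low-abundance match comp61198_c0_seq3 had its largest step last, with -2.30 ± 0.19 from 25 to 28.6°C and means of 9.27, 6.66, 4.23 and 0.850 CPM in order of warming.

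Contigs of comp57833_c0, also an SgAbd-2 match, could not be separated well, with 9.34 and 7.83% unique counts. comp57833_c0_seq1 held 20.5, 23.0, 29.4, 27.1 and 22.5 CPM at 15.5°C, 18.1, 14.9, 19.3, 6.11 and 16.8 CPM at 20°C, 13.0, 10.0, 11.4, 15.2 and 13.6 CPM at 25°C and 5.46, 6.07, 7.16, 6.34 and 4.97 CPM at 28.6°C. comp57833_c0_seq2 held 7.81, 6.40, 3.23, 4.05 and 5.76 CPM at 15.5°C, 3.62, 2.63, 4.12, 13.0 and 2.38 CPM at 20°C, 1.75, 3.80, 4.09, 0.883 and 2.77 CPM at 25°C, and at 28.6°C 0.779 and 0.226 CPM in 2 libraries and 0 in the other 3. In 20°C replicate 4, the library richest in ribosomal-like counts, the first was low and the second high, and 68.1% of the subcomponent was given to the second. Fitted differences between 28.6 and 15.5°C were -2.02 ± 0.21 and -4.80 ± 0.78, against -2.27 ± 0.088 for their sum. Without 28.6°C replicate 1, the value of comp57833_c0_seq2 was -6.34, and a library at 0 allows up to 3 counts.

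The contigs that matched cuticle proteins 6 and 8 did not share an order of temperatures. comp53736_c0_seq1, a cuticle protein 6 match, had 49.0, 46.4, 49.2, 51.3 and 46.3 CPM at 15.5°C, 20.7, 22.3, 21.5, 9.36 and 18.3 CPM at 20°C, 22.2, 21.4, 22.5, 21.7 and 26.0 CPM at 25°C and 2.99, 5.22, 3.91, 3.62 and 4.38 CPM at 28.6°C. Its levels at 20 and 25°C overlapped, between a step of -1.37 ± 0.16 before and one of -2.49 ± 0.17 after.

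The second cuticle protein 6 match, comp58123_c0_seq1, was the only tested member with a higher level at 28.6 than at 15.5°C. It had 16.1, 16.5, 14.8, 14.0 and 13.3 CPM at 15.5°C, 4.43, 4.92, 4.26, 6.51 and 4.77 CPM at 20°C, 19.9, 16.5, 19.4, 16.9 and 19.1 CPM at 25°C and 27.4, 31.2, 20.6, 21.7 and 20.6 CPM at 28.6°C. The 20°C libraries lay below all others and the 28.6°C libraries above all others, while 15.5 and 25°C overlapped. Differences were -1.61 ± 0.14 at 20°C and 0.70 ± 0.13 at 28.6°C, both against 15.5°C. The 2 contigs that matched this cockroach protein were 45.8 and 41.4% identical to it, and were in different subcomponents.

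comp54373_c0_seq1, the cuticle protein 8 match, was already low at 20°C. It had 8.60, 9.68, 7.72, 9.60 and 8.30 CPM at 15.5°C, 1.41, 1.94, 0.994, 0.407 and 1.93 CPM at 20°C, 1.01, 1.78, 1.72, 1.10 and 1.29 CPM at 25°C and 0.909, 1.49, 0.651, 2.04 and 0.946 CPM at 28.6°C. The 3 warmer groups overlapped, and the fitted difference from 15.5°C was -2.61 ± 0.31 at 20°C and -2.85 ± 0.31 at 28.6°C. The contig had 689 estimated counts over all libraries, so its levels at the warmer temperatures rest on few reads.

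**Figure D3:**
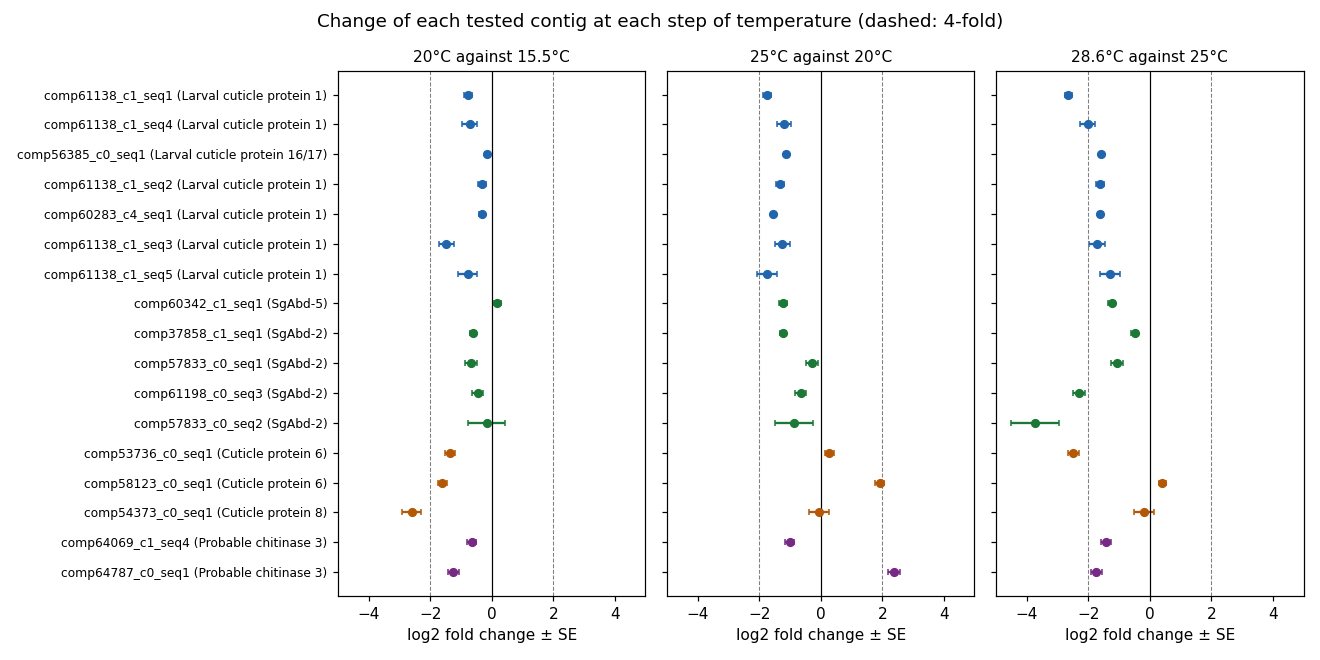
Fitted log2 fold change ± SE (x axis) of the 17 tested contigs at each step of temperature, with 4-fold marked by dashed lines. Larval cuticle and endocuticle contigs lie left of or at 0 in all 3 steps apart from SgAbd-5 at 20°C (0.18), whereas cuticle protein 6 comp58123_c0_seq1 (1.91) and chitinase comp64787_c0_seq1 (2.38) lie to the right between 20 and 25°C.

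The chitinase matches differed from each other in level and order. comp64069_c1_seq4, whose match covered nearly its whole length at 57.8% identity, had 34.6, 38.7, 41.9, 41.9 and 32.7 CPM at 15.5°C, 21.1, 21.8, 25.0, 21.2 and 30.8 CPM at 20°C, 9.27, 12.2, 13.1, 13.9 and 11.1 CPM at 25°C and 2.73, 5.00, 4.84, 4.53 and 4.61 CPM at 28.6°C. The groups were apart, and its difference between 28.6 and 15.5°C was -3.12 ± 0.16. The sum of its subcomponent went the other way, with 0.49 ± 0.047 for the same comparison.

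By estimated counts, that sum was set by a sister contig outside the table. comp64069_c1_seq5, of 3131 bases, had 165, 156, 152, 148 and 140 CPM at 15.5°C and 448, 428, 388, 427 and 408 CPM at 28.6°C, a difference of 1.46 ± 0.067 and below 4-fold. Its share of the subcomponent averaged 49.6, 63.2, 78.8 and 96.5% in order of warming. The sister comp64069_c1_seq3 differed by -3.54 ± 0.16 and comp64069_c1_seq2 by -2.67 ± 0.40, so these 2 were lower like the member while the most abundant contig was higher. Unique counts made up 13.8% of the counts of comp64069_c1_seq4 and 0.0561% of those of comp64069_c1_seq5, so most reads of this subcomponent were divided by probability. With unique counts alone the difference of comp64069_c1_seq4 was -2.55. For comp64069_c1_seq5, which had 25 unique counts in all, the mean of unique counts was 0.238 CPM at 15.5°C and 0.0449 CPM at 28.6°C. Its higher level at 28.6°C thus rests on shared reads. For comp64069_c1_seq3 these means were 1.72 and 0.253 CPM. The last member of the subcomponent, comp64069_c1_seq1, had 88 estimated counts in all, was at 0 in 12 of 20 libraries, did not pass the filter on low values and was not tested. Its highest levels were 4.43 CPM in 20°C replicate 1 and 2.29 CPM in 15.5°C replicate 3, and it had no unique count.

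**Figure D4:**
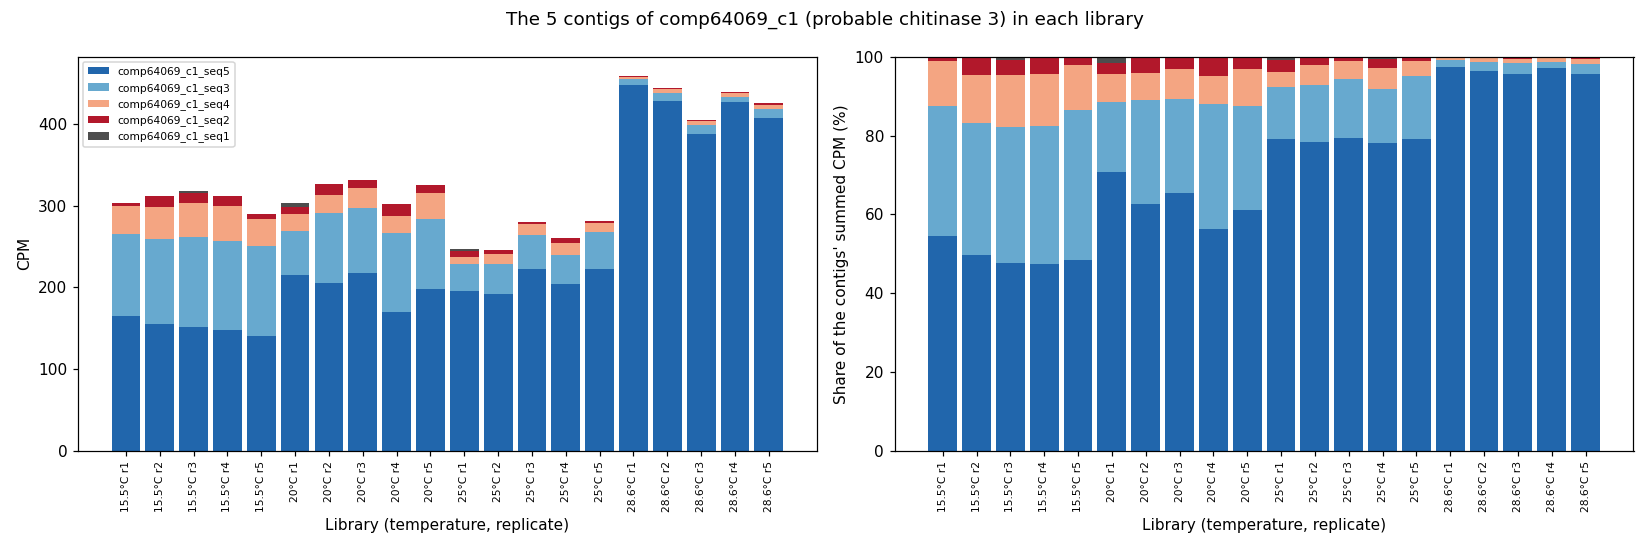
Stacked CPM (left) and percent share (right) of the 5 contigs of comp64069_c1 in each library (x axis, temperature and replicate), of which only seq1 and seq4 are members. By estimated counts, nearly all of them shared, the seq5 contig holds 47.5 to 54.5% at 15.5°C and 95.7 to 97.5% at 28.6°C, where its estimated level is also highest.

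The other chitinase match, comp64787_c0_seq1, was only 22.8% identical to the *Drosophila* protein, so its name is weakly grounded. It had 3.77, 4.36, 5.11, 4.27 and 3.81 CPM at 15.5°C, 1.61, 2.40, 1.85, 1.22 and 1.56 CPM at 20°C, 9.18, 9.89, 9.67, 9.93 and 7.82 CPM at 25°C and 2.21, 2.45, 3.44, 3.06 and 2.72 CPM at 28.6°C. The 25°C libraries were above all others, with 2.38 ± 0.18 from 20 to 25°C and -1.74 ± 0.17 from 25 to 28.6°C. Its long sister comp64787_c0_seq2, outside the table and with all counts unique, had the same peak at lower contrast, with 1.14 ± 0.069 and -1.27 ± 0.069 for these steps.

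**Figure D5:**
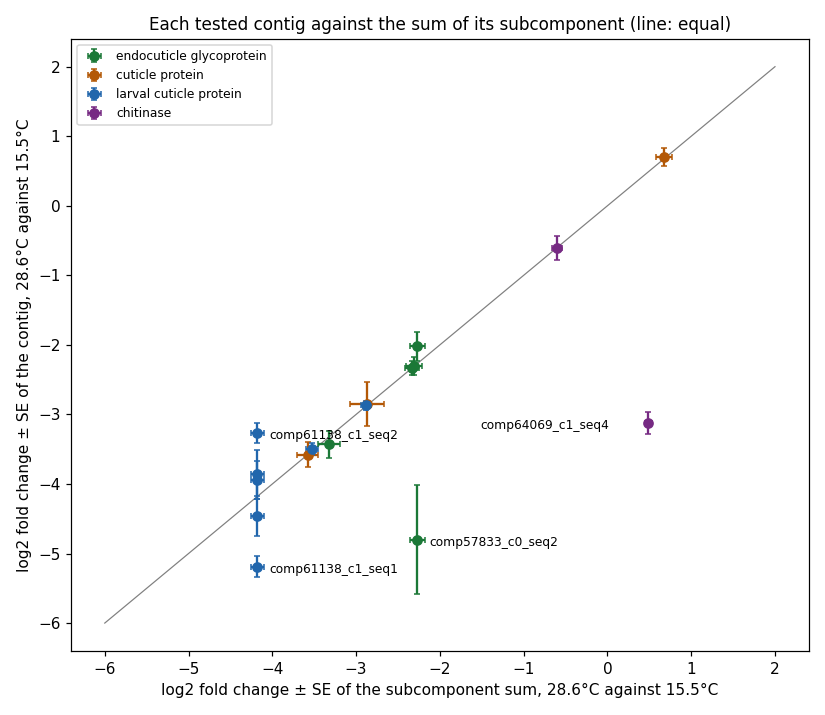
Fitted log2 fold change ± SE at 28.6 against 15.5°C of each tested contig (y axis) against that of the sum of its subcomponent (x axis), with equality as a line. Members that are alone in their subcomponent lie on the line, while comp64069_c1_seq4 (-3.12 against 0.49) and comp57833_c0_seq2 (-4.80 against -2.27) lie far below it.

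Per length of contig, the order of levels at 15.5°C began with comp61138_c1_seq1 at 2530 CPM per kilobase, followed by comp60342_c1_seq1 at 714, comp56385_c0_seq1 at 656 and comp60283_c4_seq1 at 536 CPM per kilobase. At 28.6°C comp60342_c1_seq1 was first at 145 CPM per kilobase, ahead of comp56385_c0_seq1 at 89.7, comp61138_c1_seq1 at 69.3 and comp37858_c1_seq1 at 59.7 CPM per kilobase. By the authors' FPKM, which allows for the effective length of short contigs, the order at 28.6°C was comp60342_c1_seq1 at 302, comp61138_c1_seq1 at 157 and comp56385_c0_seq1 at 141 FPKM, so the order of the latter pair differed from that per kilobase. On both scales SgAbd-5 stood above each single larval cuticle contig at the hottest temperature but below the first of them at the coolest. This order depends on counting the 5 contigs of comp61138_c1 one by one. As a subcomponent sum, not per length, comp61138_c1 stood above comp60342_c1 at 28.6°C. The libraries held 116.5 to 162.3 CPM of the former and 71.77 to 114.7 CPM of the latter.

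By counts, 15 of the 17 tested members were called lower at 28.6 than at 15.5°C, where a call is an adjusted p below 0.05 in edgeR's quasi-likelihood test and at least 4-fold, and 5.72% of all 29292 tested contigs were called lower. At 20°C against 15.5°C 1 member was called lower, against 1.82% of contigs, and at 25°C against 15.5°C 4 were, against 2.88%. Between 20 and 25°C 1 member was called higher, against 1.98%. At 28.6°C against 20°C 12 were called lower and 1 higher, against 5.55 and 5.75%, and at 28.6°C against 25°C 5 were called lower, against 2.98%. All 17 were called in at least 1 of the 6 comparisons, against 21.7% of contigs, as were 10 of the 12 subcomponents, against 10.5% of 14870. Nothing is read from these counts, because the same comparisons chose the members.

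The median log2 difference of the tested members was -0.67 from 15.5 to 20°C, -1.14 from 20 to 25°C, -1.61 from 25 to 28.6°C and -3.27 over the whole range, beside medians of 0.01, 0.02, -0.01 and 0.01 over all tested contigs. Expressed per degree, the medians of the 3 steps were -0.15, -0.23 and -0.45 on the log2 scale. In the first step 12 members had all warmer libraries below all cooler ones (12.4% of contigs), in the second 8 (8.82%) and in the third 15 (12.5%). At 28.6°C against 15.5°C 16 lay wholly below (19.1%) and 1 wholly above (19.4%). Nearest above the 4-fold limit of the table, by the largest fold over the 6 comparisons, were comp57833_c0_seq1 at 4.06-fold and comp58123_c0_seq1 at 4.97-fold, and no tested member was below it. The sister contigs nearest below were comp64069_c1_seq5 at 2.76-fold and comp64787_c0_seq2 at 2.41-fold.

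The rule left out 9 sister contigs of the same subcomponents, of which 4 were in the table without an annotation. Of the 8 that were tested, 7 were lower at 28.6 than at 15.5°C. comp60283_c4_seq2, with 2.82 to 4.10 CPM at 15.5°C and at most 0.118 CPM at 28.6°C, differed by -5.84 ± 0.78. The sisters of comp61198_c0_seq3 differed by -2.85 ± 0.44, -3.85 ± 0.39 and -3.19 ± 0.35, close to its own -3.43 ± 0.19.

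Other genes that act on chitin, on moulting or on the hardening of cuticle were looked up by protein name among the other rows of the table, which were chosen by temperature in the same way. Of 5 contigs on the list for chitin breakdown and matrix, 4 were called lower and 1 higher at 28.6 than at 15.5°C, against 5.72 and 7.58% of all tested contigs. Of the 1916 tested rows of the table that were no members, 565 were called lower and 593 higher. For lists drawn from the table, these rows are the nearer comparison. Of the lower ones, 2 matched mucin-19 of human, which is not known as a protein of chitin-lined matrices, and differed by -2.81 and -4.18. The second, comp60990_c0_seq3, shares its subcomponent with comp60990_c0_seq4, a chymotrypsin inhibitor match counted on the gut list below. The 2 contigs of peritrophin-1, a chitin-binding protein of the gut lining, differed by -2.33 and -4.06, while peritrophin-48 of the same kind differed by 2.86, from 5.11 to 37.1 CPM. No row named a chitin synthase, and the only row of the chitin precursor list was an acid trehalase-like protein, with 12.8, 56.2, 32.8 and 14.7 CPM in order of warming.

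Of 9 tanning contigs, 5 were called lower at 28.6 than at 15.5°C, against 5.72% of all tested contigs and 565 of 1916 tested table rows that were no members. The 5 phenoloxidase contigs, enzymes that oxidise phenols during tanning and melanisation, differed by -1.42 to -4.25. Several of these contigs belong to the same subcomponent, comp65529_c0. Protein yellow, known from pigmentation in *Drosophila*, differed by -2.20. Tyrosine 3-monooxygenase, which begins dopamine synthesis, was at 30.0, 10.1, 46.2 and 82.5 CPM in order of warming, and like comp58123_c0_seq1 it was lowest at 20°C and highest at 28.6°C. Dopamine N-acetyltransferase was split, with one contig at -2.45 and the other at 1.59.

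Of 13 contigs named for moulting hormones, 11 were tested and 6 were called lower at 28.6 than at 15.5°C, against 5.72% of all tested contigs. Among tested table rows that were no members, 565 of 1916 were called lower. The 2 contigs of HR38, a nuclear receptor that in *Drosophila* takes part in the response to ecdysteroids, differed by -3.49 and -2.58. The other 9 tested contigs matched basic juvenile hormone-suppressible protein 2, a storage protein, gave 4 of the 6 lower calls and brought the summed level of the list to 142200 to 171800 CPM in the 20°C libraries against 16990 to 18110 CPM at 15.5°C. Other contigs of their subcomponents comp64679_c1 and comp64905_c0 are counted under fat body, so the calls of these lists are not separate. The 2 contigs of ecdysone 20-monooxygenase, which makes the active moulting hormone, were at 0 at the 3 cooler temperatures and under 1 CPM at 28.6°C, and were not tested.

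Markers of other tissues also differed with temperature, and their calls at 28.6 against 15.5°C stand beside 5.72% of all tested contigs called lower and 7.58% called higher. The nearer comparison is the 1916 tested table rows that were no members, with 565 called lower and 593 higher. Of 79 contigs on the gut list, 72 were tested and 41 were called lower, or 39 of 70 without 2 contigs that matched a chymotrypsin inhibitor rather than an enzyme. Many gut contigs share a subcomponent, such as comp63940_c0 or comp64265_c3, as do contigs of other lists. Contigs called are thus not a count of genes. The sum of the 79 was 10290 to 10970 CPM at 15.5°C, 17120 to 21280 CPM at 20°C, 6196 to 7650 CPM at 25°C and 3046 to 3340 CPM at 28.6°C. Of 6 fat body contigs 3 were called lower, with sums of 7246 to 7695, 29080 to 36130, 6043 to 7358 and 3508 to 4808 CPM in the same order. At 28.6 against 15.5°C 4 of the 6 were lower, while vitellogenin differed by 0.98 and hexamerin-1.1 by 1.83. Of 9 muscle contigs 3 were called lower and 1 higher. Their sum was 1107 to 1395 CPM at 15.5°C and 1090 to 1399 CPM at 28.6°C. The troponin contig comp62634_c1_seq14 was added from the study's reference genes, which were picked for low variation in these libraries, and carried most of that sum, with 1000 CPM at 15.5°C and 1210 CPM at 28.6°C. The 8 muscle contigs found in the table summed to 189 to 198, 257 to 307, 138 to 163 and 36.9 to 50.5 CPM in the same order. The 5 haemocyte contigs were the phenoloxidases above, of which 3 were called lower, with sums of 362 to 385 CPM at 15.5°C and 72.7 to 93.4 CPM at 28.6°C. No row was named for silk gland proteins. At 28.6°C the sums of gut, fat body, haemocyte and the 8 muscle contigs were thus below those of 15.5°C, as was that of the cuticle members. The muscle sum with the troponin contig overlapped between these temperatures. Apart from that contig, all came from the table of contigs that differed with temperature, so these sums cannot measure tissue content. At 20°C the gut, fat body and muscle sums were highest. The haemocyte sum there, 301 to 312 CPM, was below that of 15.5°C, as was the sum of the members. The part of tissue content in the members' values was not tested.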

How the data were processed

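Wild larvae of *D. gilvipes* were sampled at 4 temperatures, with 5 thorax libraries each, made by an unstranded protocol from pooled RNA. Per the labels and methods, the authors trimmed reads (Trim Galore 0.3.0), joined overlapping pairs, assembled contigs with Trinity, mapped with Bowtie2 2.0.6 and counted with eXpress 1.5.1. The deposited estimated counts share out ambiguous reads among contigs by probability, and the authors' effective counts adjust for length bias. The deposited counts of unique reads are whole numbers of reads per contig. The authors' FPKM values are per contig length and library total. The table of differentially expressed contigs was deposited as log2 values, which equalled log2(FPKM + 1) minus the mean of each contig in all 18 columns compared (largest difference 3.2e-14). Those values were not used as levels.

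Estimated counts were rounded and fitted in R 4.3.3 with edgeR 4.0.16 (TMM, quasi-likelihood, 1 coefficient per temperature, all 20 libraries, prior count 0.125). Contigs with at least 2 CPM in at least 4 libraries were kept (29292 contigs), and P values were adjusted by Benjamini and Hochberg over all of them within each comparison. Subcomponent sums (14870) were fitted in the same way with their own scaling, so a sum differs slightly from the total of its contigs. The standard error is the fold change divided by the root of the F statistic. The test was tried on simulated data with known changes. The alternatives tried were RLE or no scaling, a likelihood ratio test, DESeq2 1.42.0, adjusted p alone, other filters, effective or unique counts, only the 2 temperatures compared, a replicate block, the longest read position as a covariate, removal of ribosomal-like contigs or of the 2 libraries rich in them, and each library left out. Replicate numbers did not pair libraries across temperatures (0 of 30 correlations over 0.1). All members may be named. Values in every library are given for the 4 most abundant, the 3 highest and 3 lowest fold changes at 28.6 against 15.5°C, the 2 farthest from their sum and up to 3 per role. Other lists were matched at the start of a word in the recommended protein name among rows of the table, except comp62634_c1_seq14, a troponin reference contig of the study that was added to the muscle list by its identifier, and the lists, like the members, were chosen with earlier results of these data known.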

Additional observations from a re-analysis of the deposited data

Results flagged for a closer look

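In 10 of the 96 sets of 5 libraries (18 contigs and 6 sums of several contigs, at 4 temperatures), 1 library stood far from the rest by Dixon's criterion, which chance alone meets in about 1 set in 20. Of these, 5 were at 20°C. The sets overlap, since sums hold their own contigs and some contigs share reads, so the 10 are not read against that rate.
Among contigs that share their reads, comp57833_c0_seq2 was at 13.0 CPM in 20°C replicate 4 against 2.38 to 4.12 CPM in the others, comp61138_c1_seq3 was at 35.7 CPM in 20°C replicate 2 against 127 to 163 CPM, and comp61138_c1_seq2 was at 162 CPM in 25°C replicate 1 against 120 to 127 CPM. comp64069_c1_seq4 was at 2.73 CPM in 28.6°C replicate 1 against 4.53 to 5.00 CPM. The sparse comp64069_c1_seq1 was at 2.29 CPM in 15.5°C replicate 3 against at most 0.453 CPM, and at 4.43 CPM in 20°C replicate 1 where the others were at 0.
Contigs whose counts were all unique were flagged as well. comp53736_c0_seq1 was at 26.0 CPM in 25°C replicate 5 against 21.4 to 22.5 CPM, and comp60342_c1_seq1 was at 425 CPM in 20°C replicate 4 against 526 to 564 CPM. Among sums, comp61198_c0 was at 27.6 CPM in 20°C replicate 3 against 23.5 to 24.5 CPM, and comp64787_c0 was at 38.5 CPM in 15.5°C replicate 3 against 35.6 to 36.1 CPM.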

How the results depend on the processing

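Counts of called members at 28.6 against 15.5°C, in any of the 6 comparisons, and of called subcomponents stayed within 1.5 times of their values under all alternatives run, except that dropping the 4-fold limit gave 1 member called higher (comp58123_c0_seq1). In edgeR no member was called higher with that limit; with each library left out in turn the counts ranged from 0 to 0 higher, 14 to 15 lower, 16 to 17 in any comparison and 10 to 10 subcomponents. The one call lost was comp57833_c0_seq1, at -1.88 with the longest read position as a covariate and at -1.96, -1.99, -1.98 and -1.95 without 15.5°C replicate 3 or 4 or 28.6°C replicate 1 or 5. With counts unique to a contig 10 members were called lower, because the other 5 left the test. The fit with a replicate block gave 15 called lower and 17 in any comparison, and changed no call. Of 573 fold changes at 28.6 against 15.5°C under the alternatives, 555 moved by less than the spread between libraries. Without scaling by composition, the median of all contigs was -0.29 and that of the members -3.58, with 9 fold changes moved. Replacing comp64069_c1_seq4 by the sum of its subcomponent reversed it to 0.49. Among the values that the sums moved, comp61138_c1_seq1 went from -5.19 to -4.18 and comp57833_c0_seq2 from -4.80 to -2.27. In the other direction, comp61138_c1_seq2 went from -3.27 to -4.18. Depth limits what can be said of members near 1 CPM, where a few reads decide a level.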
